A study of Mnemiopsis leidyi with 50 samples.

Results

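Single whole embryos of the ctenophore Mnemiopsis leidyi, a comb jelly, were compared between the hours 1 to 4 and the hours 4.5 to 6 post fertilization (hpf). The comparison took every embryo labelled 1, 2, 3 or 4 hpf (n = 4) and every embryo labelled 4.5, 5 or 6 hpf (n = 3), which is 7 of the 50 embryos of the time course. The embryos at 0 and 5.5 hpf were left out because they held only 1119 and 138478 counts. All embryos were untreated, each was a library of its own, and no strain or genotype was labelled. The labels give hours and no stage, and the study's staging scheme places both windows within early cleavage, so the windows are named here by their hours. Each hour is 1 embryo. Nothing in the labels ties the embryos to a spawning, so age and parents cannot be told apart, and the spread within a window also holds any change with time inside it.

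In most animals the first cleavages run on RNA that the mother stored in the egg. Later the embryo's own genome is transcribed and many of the stored transcripts are degraded, a handover called the maternal-to-zygotic transition. Ctenophores are known for a stereotyped cleavage programme in which blastomeres take up their fates early. RNA was counted by CEL-Seq, which tags the 3′ ends of polyadenylated RNA from each embryo with a barcode and amplifies it before sequencing. The counts do not separate stored from newly made transcripts, and since whole embryos were sequenced, fewer cells of a type and less RNA per cell cannot be told apart. Levels are given as CPM, an embryo's counts for a model scaled to a fixed total of counts assigned to gene models, so that a level is a share of the embryo's counted RNA. Gene models carry ML2.2 identifiers, none of which matched the reference gene table, so most can only be given by identifier.

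The embryos at 1 to 4 hpf held 1151164, 401652, 864377 and 554706 counts, and those at 4.5 to 6 hpf held 953736, 678408 and 872390 counts. Totals did not separate the windows (exact permutation test, two-sided, p = 0.686). Nor did the share of ambiguous reads (3.59% ± 0.275, SD, n = 4, against 3.76% ± 0.0953, SD, n = 3; exact permutation p = 0.4). The smallest p that 4 embryos against 3 can give in this test is 0.0286. Of 16548 gene models, 10802 had a count in at least 1 of the 7 embryos and 4660 had enough counts to be tested.

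From 1 to 4 hpf to 4.5 to 6 hpf, 49 models rose and 21 fell in edgeR's quasi-likelihood test, at an adjusted p (Benjamini-Hochberg) under 0.05. These are 1.05% and 0.451% of the 4660 models tested, 1.5% together. The rises were large, with 43 of the 49 over 4-fold and a median log2 fold change of 4.12. The falls were smaller, with 11 of 21 over 4-fold and a median of -2.01. Small changes could seldom pass: in simulated data 6 of 50 models changed 2-fold were called, and 38 of 50 changed 4-fold. Setting the models without a count in 1 window (1 and 2 of them) to their bound left both medians as they were. Over all models tested the median was 0.02. Together the models that rose made up between 0.197% and 0.302% of the counts at 1 to 4 hpf and 0.573%, 0.688% and 1.29% at 4.5, 5 and 6 hpf. Those that fell went from 0.572%, 0.555%, 0.590% and 0.283% at 1, 2, 3 and 4 hpf to between 0.117% and 0.147%. At an unadjusted p under 0.05, 431 models (9.25%) were higher and 387 (8.3%) lower. The windows did not overlap in 799 models (17.1%), of which 296 (6.35%) were higher and 503 (10.8%) lower at 4.5 to 6 hpf. Overlap was judged on CPM scaled by library size alone, whereas the edgeR test scaled the embryos further (TMM). With library size alone, edgeR had 319 models higher and 583 lower at an unadjusted p under 0.05. The median log2 fold change was then -0.11, so the balance of rises and falls moved with the scaling.

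The calls depended strongly on single embryos. Without the embryo at 1, 2, 3 or 6 hpf no model passed in edgeR, with 281, 324, 296 and 359 higher and 212, 267, 299 and 412 lower at an unadjusted p under 0.05. Without the embryo at 5 hpf 12 rose and 0 fell, and without that at 4.5 hpf 74 rose and 21 fell. Without the embryo at 4 hpf the counts went the other way, to 334 models that rose (7.31% of 4572 tested) and 219 that fell (4.79%), 12.1% together, among them all 49 and all 21 of the first comparison. Every one of the 70 models kept its direction in each of these comparisons in which it was tested. This was largely fixed in advance. The windows did not overlap in any of them but ML08322a, and leaving out an embryo can hardly reverse such a model.

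**Figure D1:**
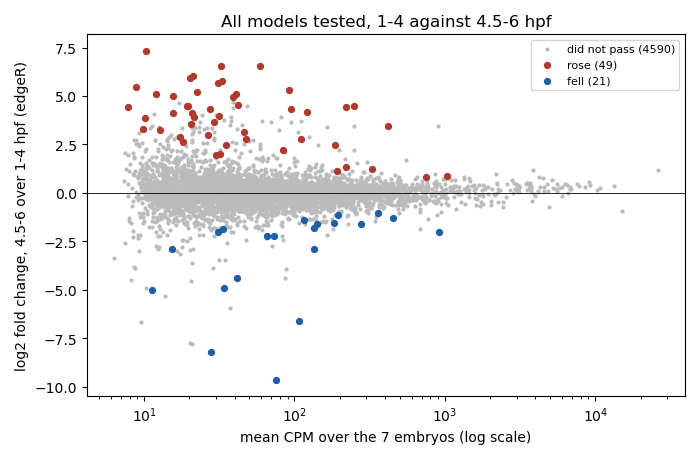
The log2 fold change of each of 4660 gene models, 4.5 to 6 hpf over 1 to 4 hpf (vertical axis, edgeR), is plotted against its mean CPM over the 7 embryos (horizontal axis, log scale). The 49 models that rose (red) and the 21 that fell (blue) lie at the edges of the cloud, whose median is 0.02.

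Among the models that rose, the 8 of largest fold change are described first, taken from those of at least 50 CPM on average whose windows did not overlap and grouped by their course. ML05265a stood at 0, 2.49, 1.16 and 3.61 CPM at 1, 2, 3 and 4 hpf and at 21.0, 89.9 and 293 CPM at 4.5, 5 and 6 hpf (log2 fold change 6.55 ± 1.01, SE, edgeR adjusted p = 0.0229). ML15363a stood at 1.74, 0, 0 and 23.4 CPM and then at 102, 215 and 300.3 CPM (log2 fold change 5.30 ± 0.90, SE, adjusted p = 0.0229). Both were close to absent at 1 to 3 hpf, and among the 7 embryos compared both climbed from 3 to 6 hpf. The embryo at 5.5 hpf, outside the comparison, held less of both than the 5 hpf embryo, at 28.9 and 188 CPM. ML08727a, a rarer model named after its values were seen, had 0 counts at 1 to 4 hpf and 16.8, 17.7 and 37.8 CPM at 4.5, 5 and 6 hpf. Set against 3 counts over the 4 early embryos it was at least 23.9-fold higher.

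Several models started from a low but measurable level and went on climbing. ML20766a had 22.6, 12.4, 30.1 and 41.5 CPM at 1 to 4 hpf and 132, 177 and 1335 CPM at 4.5 to 6 hpf (log2 fold change 4.48 ± 0.77, SE, edgeR adjusted p = 0.0229). It reached 1647 to 6187 CPM at 6.5 to 8 hpf. ML07012a had 10.4, 4.98, 11.6 and 18.0 CPM and then 74.4, 84.0 and 462 CPM (log2 fold change 4.30 ± 0.68, SE). ML141755a had 13.0, 9.96, 26.6 and 12.6 CPM and then 56.6, 133 and 595 CPM (log2 fold change 4.15 ± 0.72, SE). In these 3 models the 6 hpf embryo stood far above those at 4.5 and 5 hpf. Their windows did not overlap, which was a condition of being named.

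In 3 other rising models the embryos at 4.5, 5 and 6 hpf lay closer together in fold than in those models. ML01488a had 16.5, 2.49, 16.2 and 61.3 CPM at 1 to 4 hpf and 328, 423 and 688 CPM at 4.5 to 6 hpf (log2 fold change 4.45 ± 0.59, SE, edgeR adjusted p = 0.0229), and it held 416 to 642 CPM at 6.5 to 8 hpf. ML053614a had 41.7, 24.9, 49.7 and 231 CPM and then 766, 522 and 1274 CPM (log2 fold change 3.45 ± 0.64, SE, adjusted p = 0.0318). ML062242a had 21.7, 17.4, 25.5 and 70.3 CPM and then 136, 195 and 308 CPM (log2 fold change 2.80 ± 0.47, SE, adjusted p = 0.0229). In all 3 the embryo at 4 hpf was the highest of the first window, yet below each embryo of the second. ML053614a went on to 4342 CPM at 8.5 hpf.

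ML034632a was abundant from the start and was named for the size of its rise in CPM. It had 830.5, 737, 839.9 and 842 CPM at 1 to 4 hpf and 1116, 1321 and 1578 CPM at 4.5 to 6 hpf (log2 fold change 0.86 ± 0.18, SE, edgeR adjusted p = 0.045). Here the 4 early embryos lay close together and the 4 hpf embryo did not stand apart from 1 and 3 hpf.

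**Figure D2:**
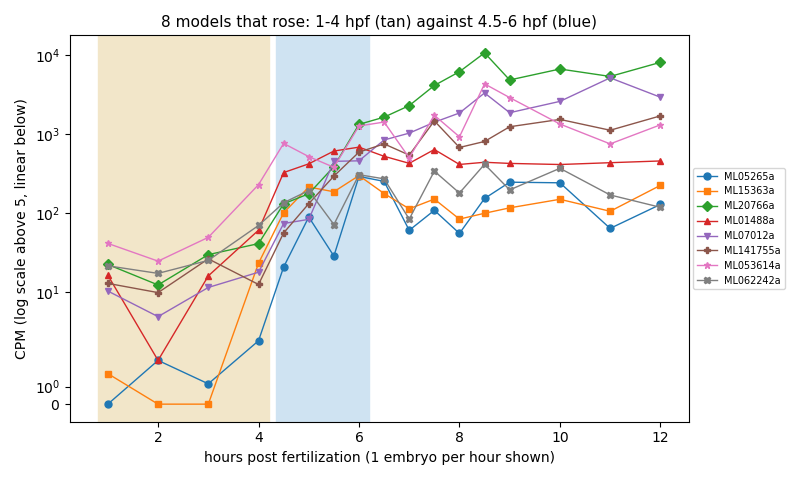
CPM of 8 models that rose, by hour from 1 to 12 hpf (1 embryo per hour, vertical axis logarithmic above 5 CPM and linear below). ML05265a climbs from at most 3.61 CPM at 1 to 4 hpf (tan) to 293 CPM at 6 hpf (blue), and ML01488a from at most 61.3 to 688 CPM; the point at 5.5 hpf inside the blue band was not part of the comparison.

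Among the models that fell, ML231814a fell from a clear level to none. It had 202, 142, 178 and 9.01 CPM at 1, 2, 3 and 4 hpf and 0 counts at 4.5, 5 and 6 hpf, at least 111-fold lower when set against 3 counts over the 3 late embryos (edgeR adjusted p = 0.0288). ML102254a had 321, 276, 217 and 48.7 CPM and then 44.0, 17.7 and 14.9 CPM (log2 fold change -2.90 ± 0.62, SE, adjusted p = 0.0482). In both, the loss was already there at 4 hpf, where the embryo stood nearer to the later window than to 1 to 3 hpf. Outside the comparison, the 5.5 hpf embryo held 72.2 CPM of ML231814a and 173 CPM of ML102254a. The embryos at 7 and 8 hpf held 45.3 and 23.1 CPM of ML231814a.

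The most abundant model that fell was ML040518a, with 1435, 1486, 1833 and 712 CPM at 1 to 4 hpf and 286, 388 and 252 CPM at 4.5 to 6 hpf (log2 fold change -2.01 ± 0.31, SE, edgeR adjusted p = 0.0229). ML071126a had 492, 413, 508 and 173 CPM and then 107, 116 and 135 CPM (log2 fold change -1.59 ± 0.34, SE). ML063337a had 613, 717, 728 and 413 CPM and then 243, 248 and 195 CPM (log2 fold change -1.29 ± 0.25, SE). In these 3 models the 4 hpf embryo lay between 1 to 3 hpf and 4.5 to 6 hpf.

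ML105414a had 392, 451, 634 and 425 CPM at 1 to 4 hpf and 189, 237 and 194 CPM at 4.5 to 6 hpf (log2 fold change -1.07 ± 0.23, SE, edgeR adjusted p = 0.0476), and its level at 4 hpf was within the range of 1 to 3 hpf. ML06176a had 239, 232, 170.1 and 149.6 CPM and then 57.7, 56.0 and 36.7 CPM (log2 fold change -1.83 ± 0.30, SE). ML086432a had 179, 109.5, 91.4 and 64.9 CPM and then 19.9, 28.0 and 17.2 CPM (log2 fold change -2.23 ± 0.41, SE). In ML06176a and ML086432a the 4 hpf embryo was the lowest of its window but lay nearer to 3 hpf than to 4.5 hpf. ML069129a (132, 105, 109 and 55.9 CPM, then 23.1, 25.1 and 10.3 CPM) and ML305535a (239.8, 251, 202 and 110.0 CPM, then 62.9, 61.9 and 56.2 CPM) fell with log2 fold changes of -2.22 ± 0.42 and -1.59 ± 0.32 (SE). None of these 5 models overlapped between the windows, which for all but ML105414a was a condition of being named. Outside the comparison, at 5.5 hpf, ML305535a and ML105414a stood at 202 and 383 CPM. The same embryo had 36.1, 14.4 and 14.4 CPM of ML06176a, ML086432a and ML069129a.

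**Figure D3:**
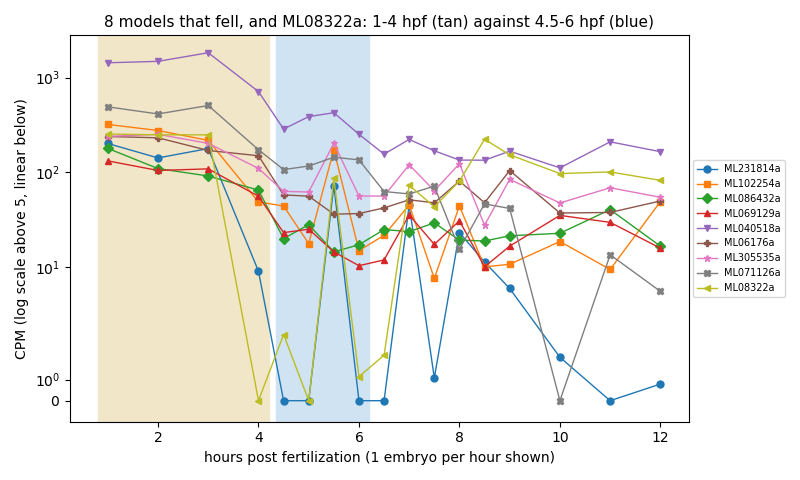
CPM of 8 models that fell, and of ML08322a, by hour from 1 to 12 hpf (1 embryo per hour, vertical axis logarithmic above 5 CPM and linear below). ML231814a drops from 178 CPM at 3 hpf to 9.01 CPM at 4 hpf (end of the tan band) and 0 at 4.5 hpf (start of the blue band); the point at 5.5 hpf was not part of the comparison and lies high for several of the models.

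The embryo at 4 hpf stood apart from 1 to 3 hpf and close to 4.5 and 5 hpf. Across the 4660 models tested, the log2 CPM of the embryos at 1, 2 and 3 hpf correlated with each other at Pearson's r of 0.928 to 0.947, and with 4 hpf at only 0.832 to 0.842. With 4.5 and 5 hpf the 4 hpf embryo correlated at 0.934 and 0.926, and with 6 hpf at 0.857. These are correlations across genes, which are not independent replicates, and are given without a test. The 4 hpf embryo had neither the fewest nor the most counts of its window, and its share of ambiguous reads, 3.80%, was within the window's range of 3.35% to 3.85%. It did have the highest share of low-quality alignments of its window (16.5%, against 15.7% to 16.3%) and the lowest share of unaligned reads (47.9%, against 48.4% to 50.7%), whose part in its position was not tested.

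Each embryo was also placed on models in whose choice it had no part. The models were taken from the comparison without the embryo, and its log2 CPM was then set between the mean of the earlier window (0) and that of the later window (1). For the 4 hpf embryo the median position was 0.75 over 329 models that rose and 0.74 over 219 that fell. The next counts use CPM scaled by library size alone, with 5 CPM added for the midpoint, on all models called without the 4 hpf embryo. Of the 334 models that rose, that embryo lay past the midpoint in 242 (72.5%) and beyond the range of 1 to 3 hpf, on the side of the change, in 301 (90.1%). Of the 219 that fell, the numbers were 170 (77.6%) and 208 (95.0%). The same shares over all models tested were not computed. Since the models were chosen for 1 to 3 hpf standing apart from 4.5 to 6 hpf, these counts are a description. With the 200 models of smallest p in each direction, the embryos at 1, 2 and 3 hpf were at -0.13, -0.19 and 0.01 for rising models and -0.17, -0.14 and 0.06 for falling ones. The embryos at 4.5, 5 and 6 hpf were at 0.61, 0.82 and 1.04 and at 0.54, 0.83 and 0.64. The window means differ with the embryo left out, so positions of embryos on either side are not on 1 common scale. No test was run on the positions, since each hour is a single embryo.

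Which models had changed by 4 hpf is seen most plainly in those absent at 1 to 3 hpf. Of the 334 models that rose when the 4 hpf embryo was left out, 20 had 0 counts in all 3 embryos at 1, 2 and 3 hpf, and 214 of the 334 changed over 4-fold (median log2 fold change 2.75, and 2.75 also with the models at 0 set to their bound). The models named in this paragraph and the next were picked after their values were seen, from those with the largest change outside the list above, so their level at 4 hpf is a description. ML034630a had 0 counts at 1 to 3 hpf, 159 CPM at 4 hpf and 106, 162 and 180.0 CPM at 4.5, 5 and 6 hpf, where it was at least 120-fold above 3 counts over the 3 early embryos. ML13563a went likewise from 0 counts to 93.7 CPM at 4 hpf and 71.3, 134 and 113 CPM later, at least 85.7-fold higher. ML082714a had 0.869, 0 and 0 CPM, then 108 CPM at 4 hpf and 143, 255 and 233 CPM later (log2 fold change without 4 hpf 8.68 ± 0.60, SE, edgeR adjusted p = 6.33e-06). At 4 hpf ML034630a and ML13563a were thus within their range of the later window, and ML082714a was below its own. With the 4 hpf embryo kept among the early ones none of the 3 passed, at edgeR adjusted p of 0.435, 0.343 and 0.2. ML22322a, also at 0 counts at 1 to 3 hpf, did not hold its level. It had 135 CPM at 4 hpf but 34.6, 42.7 and 139 CPM at 4.5, 5 and 6 hpf. At 5.5, 7, 8 and 11 hpf it had 0, 1.97, 1.92 and 1.35 CPM.

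The falling models gave the mirror image. Of 219 models that fell without the 4 hpf embryo, 74 changed over 4-fold, with a median log2 fold change of -1.63. ML08322a had 254, 249 and 249 CPM at 1, 2 and 3 hpf, 0 counts at 4 hpf, and 3.15, 0 and 1.15 CPM at 4.5, 5 and 6 hpf (log2 fold change without 4 hpf -7.03 ± 0.51, SE, edgeR adjusted p = 8.81e-06). ML398336a had 188, 197 and 200.1 CPM, then 1.80 CPM at 4 hpf and 6.29, 11.8 and 1.15 CPM. ML234560a had 244, 162 and 178 CPM, then 3.61 CPM at 4 hpf and 3.15, 8.84 and 13.8 CPM. Among the 7 embryos these 3 models were present in the first 3 and all but gone in the next, but they were back in some embryos outside the comparison. At 5.5 hpf they had 86.7, 93.9 and 231 CPM, and ML08322a had 223 and 153 CPM at 8.5 and 9 hpf and 82.2 to 101 CPM from 10 to 12 hpf. ML049018a (129, 119.5 and 192 CPM, then 10.8 CPM at 4 hpf), ML131114a (151, 107 and 137 CPM, then 1.80 CPM) and ML210029a (124, 137 and 233 CPM, then 25.2 CPM) took the same course. In the second window they stood at 13.8 to 17.7, 3.15 to 33.2 and 2.10 to 48.1 CPM.

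Embryos older than the comparison, and the shallow embryo at 5.5 hpf, were placed between 1 to 3 and 4.5 to 6 hpf on the same 329 and 219 models. In neither direction did the positions follow the hours. For rising models the median position was 0.61 at 5.5 hpf, 1.09, 0.80, 1.14 and 0.94 at 6.5, 7, 7.5 and 8 hpf, 0.83 at 11 hpf and 1.04 to 1.17 at 8.5, 9, 10 and 12 hpf. Falling models differed more between embryos. Their positions were 1.06, 1.05, 1.04, 0.95 and 0.83 at 6.5, 7.5, 8.5, 9 and 10 hpf but 0.36, 0.49, 0.56, 0.50 and 0.59 at 5.5, 7, 8, 11 and 12 hpf. Scaled by library size alone, the falling models stood at 0.66, 0.81, 0.87 and 0.91 at 7, 8, 11 and 12 hpf and at 1.09 to 1.26 at 6.5 to 10 hpf in the other embryos, so the gap became smaller, while the embryos at 6.5 and 7.5 hpf stayed above those at 7 and 8 hpf. On that scale the rising models stood at 0.67, 0.70 and 0.58 at 7, 8 and 11 hpf. The embryos at 7 and 8 hpf had 507616 and 519768 counts, against 925981 and 923820 at 6.5 and 7.5 hpf. Among the others, the 10 hpf embryo, with a falling position of 0.83, had the fewest counts from 6.5 to 12 hpf (484496), the 12 hpf embryo the most (1265333), and the 11 hpf embryo 743177. The part of the totals in the positions was not tested. Of the 49 models that rose with all 7 embryos, 48 had a mean at 6.5 to 8 hpf above that of 1 to 4 hpf, and of the 21 that fell all 21 had one below it. The models were chosen by their difference from that 1 to 4 hpf level, which favours this outcome. Against the 4.5 to 6 hpf mean, 35 of the 49 were higher at 6.5 to 8 hpf and 5 of the 21 lower.

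**Figure D4:**
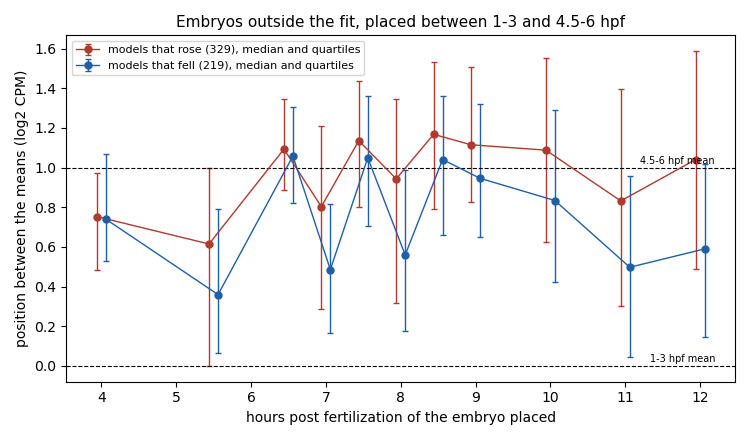
Median position, with quartiles, of embryos left out of the fit between the mean of 1 to 3 hpf (0) and of 4.5 to 6 hpf (1) on the log2 CPM scale, for 329 models that rose (red) and 219 that fell (blue), by hour. The 4 hpf embryo lies at 0.75 and 0.74, and the falling models lie low again at 5.5, 7, 8, 11 and 12 hpf.

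The study's own gene lists were candidates for colloblasts, the adhesive cells that ctenophores use to catch prey, and for other cells of the tentacles. Those listed in the domain search of its supplement, with or without a named domain, were analysed here, which is fewer than its full candidate sets. None passed between these windows in edgeR, where 1.5% of all models did. Only 34 listed models could be tested, so at that share 0 calls does not set them apart from other models. Of 161 colloblast candidates 104 had a count in the 7 embryos and 17 could be tested, and 0 rose or fell in edgeR. At an unadjusted p under 0.05, 3 were higher and 1 lower, against 9.25% and 8.3% of all models, and the median log2 fold change was 0.29. Of 144 tentacle candidates 75 had a count and 14 could be tested, again with 0 calls, 4 higher and 2 lower at an unadjusted p under 0.05 and a median of 0.84. Over all 331 listed models, 34 were tested and none passed in edgeR or DESeq2, while limma voom passed 2. DESeq2 passed 4.76% and limma voom 1.93% of all models tested. Of the 34, 24 (70.6%) were higher at 4.5 to 6 hpf, against 51.6% of all models tested. The study chose its candidates by their presence or absence across ctenophore species, and most listed models were too rare at these hours to be tested. None of the 9 models with an adhesive-protein hit, the 7 with a von Willebrand factor D domain or the 5 with a MACPF domain could be tested, and 1 of 13 with a toxin hit could.

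Without the 4 hpf embryo 7 of 32 listed models tested passed, 4 of them rising, where 12.1% of all models passed. ML03443a, a colloblast candidate, had 1.74, 0 and 1.16 CPM at 1 to 3 hpf, 55.9 CPM at 4 hpf and 58.7, 81.1 and 86.0 CPM at 4.5 to 6 hpf (log2 fold change without 4 hpf 5.93 ± 0.57, SE, edgeR adjusted p = 5.96e-05). ML03436a, a tentacle candidate with an ephrin-receptor-like domain, had 0, 0 and 1.16 CPM, then 36.1 CPM at 4 hpf and 48.2, 64.9 and 52.7 CPM. ML05519a, a tentacle candidate of the rhodopsin-like receptor family, had 0 counts at 1 to 3 hpf, then 30.6 CPM at 4 hpf and 13.6, 17.7 and 84.8 CPM. Among the 7 embryos these transcripts were near absent in the first 3 and present in the other 4. Outside the comparison ML03436a had 0, 0, 1.92 and 0 CPM at 5.5, 7, 8 and 11 hpf. With 4 hpf among the early embryos they did not pass, at adjusted p of 0.224, 0.201 and 0.311.

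The 3 listed models that fell without 4 hpf did so by smaller amounts. ML124226a, a small GTPase among the tentacle candidates, had 65.2, 97.1, 63.6 and 34.3 CPM at 1 to 4 hpf and 25.2, 20.6 and 18.3 CPM at 4.5 to 6 hpf (log2 fold change -1.44 ± 0.41, SE, edgeR adjusted p = 0.111, and 0.0149 without 4 hpf). ML02667a, whose domain is that of enzymes that degrade glutathione, had 136, 112, 83.3 and 73.9 CPM and then 32.5, 60.4 and 39.0 CPM (adjusted p = 0.131, and 0.0416 without 4 hpf). ML069135a, an arrestin-like model with a RING zinc finger, had 20.8, 24.9, 22.0 and 7.21 CPM and then 4.19, 8.84 and 1.15 CPM (adjusted p = 0.193, and 0.0414 without 4 hpf). The windows of ML069135a overlapped through its 4 hpf embryo, and those of the other 2 did not. The remaining listed models of smallest p did not pass in either comparison, ML002220a (organic solute transporter family) at log2 fold change 2.87 ± 0.86 and the tetraspanin ML02593a at 1.47 ± 0.55 (SE).

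**Figure D5:**
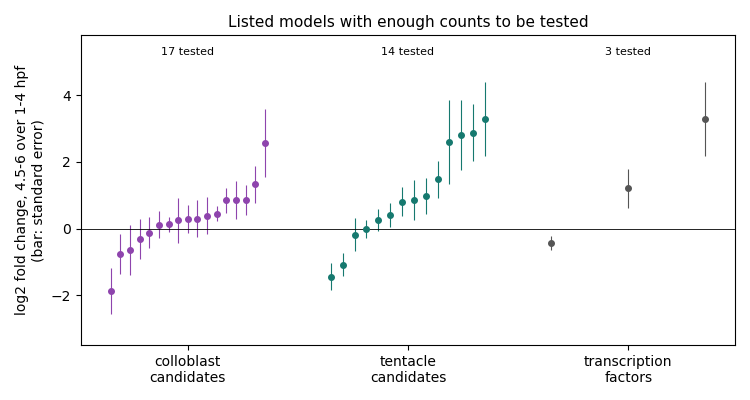
Log2 fold change, 4.5 to 6 hpf over 1 to 4 hpf, with its standard error, for the models of 3 lists that could be tested, 17 colloblast candidates, 14 tentacle candidates and 3 transcription factors, sorted within each list (MlPRD10a is in the last 2 lists). None of the points passed at an adjusted p under 0.05, and most lie above 0.

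Of 5 transcription factors that the study singled out, MlPRD10a (ML148940a), a paired class homeobox factor, differed most. It had 0, 0, 1.16 and 39.7 CPM at 1, 2, 3 and 4 hpf and 51.4, 42.7 and 157 CPM at 4.5, 5 and 6 hpf, with the windows apart but 4 hpf close to 4.5 and 5 hpf. The log2 fold change was 3.29 ± 1.12 (SE, edgeR adjusted p = 0.157), and without the 4 hpf embryo it was 7.35 ± 0.91 (SE, adjusted p = 0.000299). It stayed at 106 to 154 CPM from 6.5 to 8 hpf.

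The nuclear receptor MlNR1 (ML073417a) was abundant from the start, with 718, 1013, 964 and 698 CPM at 1 to 4 hpf and 467, 613 and 641 CPM at 4.5 to 6 hpf. Its windows did not overlap, but the difference did not pass (log2 fold change -0.43 ± 0.22, SE, edgeR adjusted p = 0.332). MlBsh (ML08269a), the brain specific homeobox factor, had 5.21, 17.4, 4.63 and 12.6 CPM and then 13.6, 23.6 and 21.8 CPM (adjusted p = 0.308), and its windows overlapped. The nuclear receptor MlNR2 (ML305522a) was at 0 to 10.8 CPM in all 7 embryos and the LIM homeobox factor MlIslet (ML053012a) at 0 to 2.29 CPM, both too low to be tested. MlIslet had 0 counts at 1 to 4 hpf, which over these embryos allows up to 1.01 CPM for counting error alone.

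The most abundant models that did not pass differed in how widely they varied between single embryos. ML305521a had 30369, 7362, 19200.0 and 15642 CPM at 1 to 4 hpf and 52765, 32889 and 23992 CPM at 4.5 to 6 hpf (log2 fold change 1.17 ± 0.40, SE, edgeR adjusted p = 0.155), with windows that overlapped. ML014110a had 28112, 18568, 19505 and 11895 CPM and then 11636, 10317 and 5272 CPM (log2 fold change -0.96 ± 0.32, SE, adjusted p = 0.149, and -1.13 ± 0.29 with adjusted p = 0.0262 without the 4 hpf embryo). Its windows lay close but did not overlap, and its level in the 6.5 to 8 hpf embryos was 2927 to 5577 CPM. ML193210a stayed between 10320.0 and 15216 CPM in the 7 embryos.

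The number of gene models detected and the share of the most abundant ones were higher on average in the second window, but neither passed after adjustment. With every embryo thinned to 401652 counts, 6620.0 ± 296 (SD, n = 4) models had a count at 1 to 4 hpf and 7268 ± 302 (SD, n = 3) at 4.5 to 6 hpf (exact permutation test, two-sided, p = 0.0571, and 0.190 adjusted over 10 such tests). The numbers were 6593, 6246, 6677 and 6964 at 1, 2, 3 and 4 hpf and 7075, 7112 and 7616 at 4.5, 5 and 6 hpf, so the windows did not overlap. Before thinning the means were 7203 and 8174 models (exact p = 0.0857). The 100 most abundant models took 41.5% ± 1.46 (SD, n = 4) of the counts at 1 to 4 hpf and 45.1% ± 2.74 (SD, n = 3) at 4.5 to 6 hpf (exact permutation test, two-sided, p = 0.0286, and 0.143 adjusted over 10 such tests). The difference of 3.62 percentage points became 2.04 without the 4.5 hpf embryo (exact p = 0.133, in a design that cannot go below 0.0667), an embryo in which those models took 48.3%.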

How the data were processed

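CEL-Seq reads of single embryos were processed by the authors with CASAVA 1.8, Bowtie2 2.1.0 and HTSeq 0.5.4p3, per the labels, and deposited as 1 table of raw counts per ML2.2 gene model. Genome build, counting options and any collapsing of molecular identifiers were not given in the sources used here, so intervals and floors cover counting error only. The 5 HTSeq class rows were dropped. In the 7 embryos the gene models held 30.2% to 32.1% of the table's reads, and reads not aligned 47.3% to 50.7%. Counts were tested with edgeR 4.0.16 in R 4.3.3 (filterByExpr, TMM, glmQLFTest, 4 embryos against 3), with SE as the log2 fold change over the root of F. Positions used log2 CPM with a prior count of 2. Genes were named by a rule on fold change, level (50 CPM) and overlap, with 18 more named after their values were seen, besides ML08727a. The members, lists and rule were chosen with earlier results of these data known. No 2 of the 7 columns were identical. The code was tested on simulated data, with 50 models changed at each of 2-, 4-, 8- and 16-fold. It called 6, 38, 44 and 47 of these, and 11 models that were not changed. Figures were drawn with matplotlib 3.10.9, and DESeq2 1.42.0 and limma 3.58.1 served as alternatives. Other splits, left-out embryos and scalings are given with the closing observations. P-values measure the spread between these embryos only.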

Additional observations from a re-analysis of the deposited data

Results flagged for a closer look

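In all, 48 sets of values of the 4 early embryos were looked at for an embryo far from the other 3. Of these, 14 were flagged, each in a named model and 13 of them at 4 hpf. Chance flags about 1 set in 20, and many of the models were named for a change that left 4 hpf out, so the number is a description. High at 4 hpf were ML15363a (23.4 CPM), ML053614a (231 CPM), ML062242a (70.3 CPM), ML148940a (MlPRD10a, 39.7 CPM), ML034630a (159 CPM), ML13563a (93.7 CPM), ML22322a (135 CPM, against 0 counts at 1 to 3 hpf), ML082714a (108 CPM), ML03436a (36.1 CPM), ML03443a (55.9 CPM) and ML05519a (30.6 CPM). Low at 4 hpf were ML08322a (0 CPM) and ML398336a (1.80 CPM). The flag outside 4 hpf was ML034632a, low at 2 hpf (737 CPM).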

How the results depend on the processing

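Of the 49 models that rose and 21 that fell, every one kept its direction in each alternative in which it was tested, but their number did not hold. The alternatives reuse the embryos on which the models were called, so a kept direction is no separate support. RLE size factors gave 49 and 21, scaling by library size alone 39 and 23, and a filter of 10 CPM in 3 embryos 55 and 21. Without a filter beyond 1 count 374 rose and 175 fell (10802 tested), with hours as a number 281 and 182, and with 5 windows in 1 fit 277 and 56. DESeq2 gave 117 and 105, limma voom 76 and 14, thinned counts 15 and 4, and a test against a 1.5-fold change 27 and 5. Adding 5.5 hpf gave 42 and 8, and adding 0 and 5.5 hpf 64 and 11. Leaving out 1 embryo gave 0 to 334 that rose and 0 to 219 that fell, the cause of the spread not being tested. Listed models that changed went from 0 to 9 without the filter, 9 with hours as a number, 7 with 5 windows, 2 with limma voom and 0 to 7 with 1 embryo left out. The share of counts in the most abundant models differed by 2.05 percentage points for the top 10 (exact permutation p = 0.114), 2.03 for the top 500 (p = 0.171) and 2.04 to 4.50 for the top 100 with 1 embryo left out, where the design cannot give p under 0.05. No paired analysis was possible because the labels give no replicate numbers that tie embryos across windows. At these depths models under about 10 CPM were mostly not tested.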

Other observations

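Some transcripts that were lost by 4 hpf were present again in a few older embryos and not in those of the neighbouring hours, in models picked after their values were seen. ML234560a had 231, 164, 248 and 163 CPM at 5.5, 7, 8 and 11 hpf, 75.9 CPM at 12 hpf, and 3.15 to 33.0 CPM in the other 9 embryos from 4 to 10 hpf. ML049018a had 144, 98.5 and 69.3 CPM at 5.5, 7 and 8 hpf and 9.42 to 18.4 CPM in all others from 4 to 12 hpf. ML08382a, another model that fell (73.8, 39.8, 79.8 and 1.80 CPM at 1 to 4 hpf, 0 counts at 4.5 to 6 hpf), had 28.9, 63.0 and 44.3 CPM at 5.5, 7 and 8 hpf and at most 2.16 CPM in the other embryos from 6.5 to 12 hpf.

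Other models showed the opposite pattern in the same embryos. ML22322a had 0, 1.97, 1.92 and 1.35 CPM at 5.5, 7, 8 and 11 hpf and 17.8 to 237 CPM in the others from 4 to 12 hpf. ML03436a had 0, 0, 1.92 and 0 CPM at 5.5, 7, 8 and 11 hpf and 6.32 to 64.9 CPM in the others from 4 to 12 hpf. The labels do not give the parents or the spawning of any embryo.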
